A study of Mus musculus with 12 samples.

Results

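Endothelial cells of the mouse lung were examined for 10 transcription factor genes that are known for building and keeping the endothelial lineage: the ETS factors Erg, Fli1, Ets1 and Ets2, the SOXF factors Sox7, Sox17 and Sox18, and Gata2, Tal1 and Foxo1. All 10 were found by their official symbol among the 23422 gene identifiers measured, and the FPKM values of a gene's transcripts (fragments scaled by transcript length and library size) were summed. The cells were primary cultures from lungs of C57BL/6J wild type mice (WT) and of MLK2-/-MLK3-/- double knockout mice (DKO), which lack 2 mixed lineage kinases. There were 4 groups of 3 libraries: DKO in hypoxia (1% oxygen for 90 min), DKO in normoxia (21% oxygen), WT in hypoxia and WT in normoxia. The study asked which pathways act after these kinases. Whether a group's libraries stem from separate animals or cultures is not stated, so each p reflects only the scatter among these libraries. All cells were grown in a medium with serum, endothelial mitogen and heparin, which every group shares. In bulk RNA, fewer cells of a type and less RNA per cell cannot be told apart.

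ETS proteins bind a GGAA core that lies in most known endothelial enhancers, and ERG with its close relative FLI1 keeps mature endothelium in its differentiated state. SOX7, SOX17 and SOX18 act together in arterial and lymphatic specification. TAL1 and GATA2 form complexes with LMO2 in blood and endothelial precursors, and FOXO1, which AKT keeps out of the nucleus, restrains endothelial growth and metabolism.

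The libraries held an estimated 21100000 to 26000000 fragments. Libraries of a group correlated at a Pearson's r of 0.9937 to 0.9955 (log2 scale), and libraries of different groups at 0.9831 to 0.9928. Map3k10, which encodes MLK2, averaged 1.17 FPKM in DKO hypoxia, 0.148 in DKO normoxia, 17.5 in WT hypoxia and 18.8 in WT normoxia, and Map3k11, which encodes MLK3, averaged 11.6, 11.2, 32.9 and 34.7 FPKM in the same order. None of the 10 genes lies on the chromosomes of these kinases. Of 13 endothelial markers, 12 were at 1 FPKM or more, led by Egfl7, Emcn and Pecam1. The exception was Vwf, the von Willebrand factor gene and a defining endothelial marker, whose mean was 0.119 FPKM. The lymphatic markers Lyve1 and Prox1 were also present, with means of 315 and 26.6 FPKM.

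The levels of the 10 genes differed widely. Erg averaged 190.2 FPKM over the 12 libraries and ranked 543 among the 11378 genes tested, which are those that averaged 1 FPKM or more. Fli1 followed at 101 FPKM, then Ets2 at 55.6, Ets1 at 54.2 and Sox18 at 48.3. Tal1, at 13.1 FPKM, was near the middle of the tested genes (rank 5563). The lower members were Gata2 at 6.57 FPKM, Sox7 at 4.65, Foxo1 at 1.45 and Sox17 at 1.38. Sox17 rested on only 24 to 53 estimated fragments per library, while Fli1 had 5737 to 7623.

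Among ETS genes, Erg, Fli1, Ets2 and Ets1 were the 4 highest of the 22 examined. Etv1, Etv4 and Etv5 were not among the 22. Of 18 other ETS genes, 10 reached a mean of 1 FPKM, led by Elf2 at 43.1 and Elk3 at 42.1. Etv2, which starts the endothelial program in the embryo, had a mean of 0.00473 FPKM, and Spi1, an ETS factor of myeloid cells, one of 0.129 FPKM. The summed level of Erg, Fli1, Ets1 and Ets2 was 449 ± 9.75 FPKM in DKO hypoxia, 381 ± 2.59 in DKO normoxia, 402 ± 1.90 in WT hypoxia and 372 ± 3.34 in WT normoxia (SD, n = 3 each). The hypoxia libraries were above the normoxia libraries of their own genotype without overlap, and the DKO hypoxia libraries were above all others. The sum of the 18 other ETS genes had the same separations. It was 219.8 to 223.9 FPKM in DKO hypoxia and 193.4 to 199.5 in DKO normoxia. In WT cells it was 208.9 to 216.9 in hypoxia and 194.4 to 198.3 in normoxia. These level comparisons are per kilobase of transcript.

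**Figure D1:**
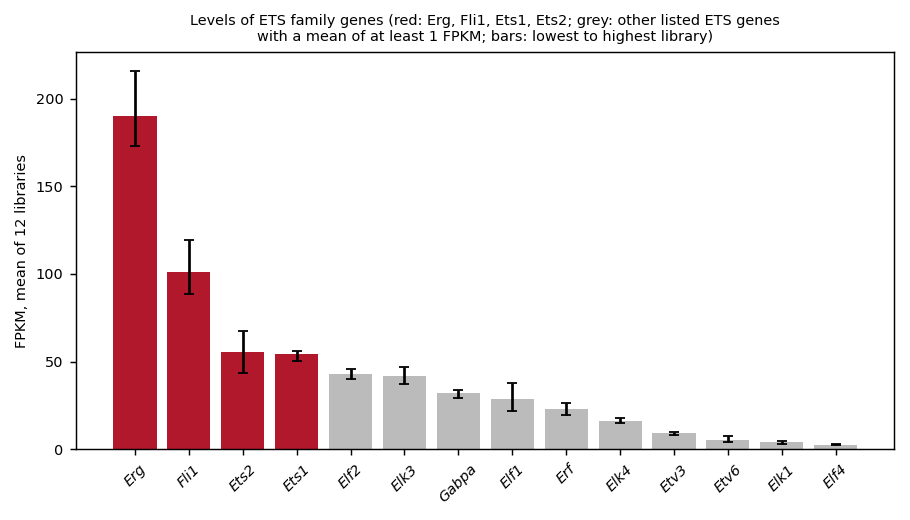
Mean FPKM over 12 libraries of the examined ETS genes that averaged 1 FPKM or more, with lines from the lowest to the highest library. Erg, Fli1, Ets2 and Ets1 are red and other examined ETS genes grey. Erg (173 to 216 FPKM) and Fli1 (88.7 to 119.5 FPKM) stand above every other ETS gene shown.

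In DKO cells, hypoxia changed 6 of the 10 genes in limma's test at an adjusted p of 0.05, against 39.3% of all tested genes. Erg, Fli1 and Ets2 rose (19.6% of all genes), and Sox18, Tal1 and Foxo1 fell (19.6%). The libraries of DKO hypoxia and DKO normoxia did not overlap for the same 6, against 50.3% of all genes. In WT cells, hypoxia changed 3 of the 10, against 20.8% of all tested genes: Erg and Ets2 rose (10.5% of all genes) and Tal1 fell (10.4%). The WT groups did not overlap for these 3 and for Sox17, against 38.3% of all genes. The calls among the ETS members were all upward, and Sox18, Tal1 and Foxo1 were the members called downward. The median log2 fold change was -0.02 over the 10 genes and 0.01 over all genes in DKO cells, and 0.01 and 0.00 in WT cells. The median size of the change, without its sign, was 0.22 over the 10 genes against 0.15 over all genes in DKO cells, and 0.10 against 0.11 in WT cells. Fold changes here are differences of log2(FPKM + 1), which understate the change of genes at low levels. The comparisons share libraries with each other, since each group enters both an oxygen and a genotype comparison.

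Between genotypes, 5 of the 10 genes differed in hypoxia, against 16.1% of all tested genes. Erg, Fli1 and Sox17 were higher in DKO than in WT hypoxia (7.68% of all genes), and Sox7 and Tal1 were lower (8.42%). The groups did not overlap for these 5 and for Foxo1, against 35.8% of all genes. In normoxia, 1 of the 10 differed, against 8.16% of all tested genes: Fli1 was higher in DKO cells (3.84% of all genes), and no member was lower at the threshold (4.32%). The normoxia groups did not overlap for Fli1, Gata2 and Foxo1, against 25.7% of all genes.

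Averaged over genotypes, the hypoxia effect passed in limma for 5 of the 10 genes, against 45.6% of all genes: Erg (0.20), Fli1 (0.08) and Ets2 (0.41) rose, and Tal1 (-0.35) and Foxo1 (-0.18) fell. The Fli1 value turned to -0.01 with quantile normalization and lost the call there (limma adjusted p = 0.793 against 0.0347). It also lost the call without a variance trend (adjusted p = 0.0612), on a scale of estimated fragments per 1000000, which was added after seeing the data (0.05, adjusted p = 0.0844) and with its highest transcript alone (0.05, adjusted p = 0.171), all in limma, and on leaving out any single library other than DKO hypoxia 1, DKO normoxia 1, WT hypoxia 2 and WT normoxia 3. The Foxo1 call was lost with quantile normalization (-0.13, limma adjusted p = 0.0575), and its exact permutation test gave a two-sided p of 0.0152 (Benjamini-Hochberg 0.0505 over 20 such tests). Averaged over oxygen levels, the genotype effect passed for 4 of the 10, against 19% of all genes: Fli1 (0.25) and Sox17 (0.36) were higher in DKO cells, and Sox7 (-0.23) and Tal1 (-0.11) were lower. Of these, Sox17 lost the call without a filter on low values (adjusted p = 0.0892) and on the fragment scale (0.12, adjusted p = 0.441), both in limma, and on leaving out any single library other than DKO hypoxia 1 and DKO normoxia 3 (limma adjusted p up to 0.0967). Tal1 lost it without the filter (adjusted p = 0.0533), with quantile normalization (adjusted p = 0.0778), with equal library medians (adjusted p = 0.0644) and with its highest transcript alone (adjusted p = 0.285), all in limma, and on leaving out any single library other than WT normoxia 3 (limma adjusted p up to 0.0994).

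**Figure D2:**
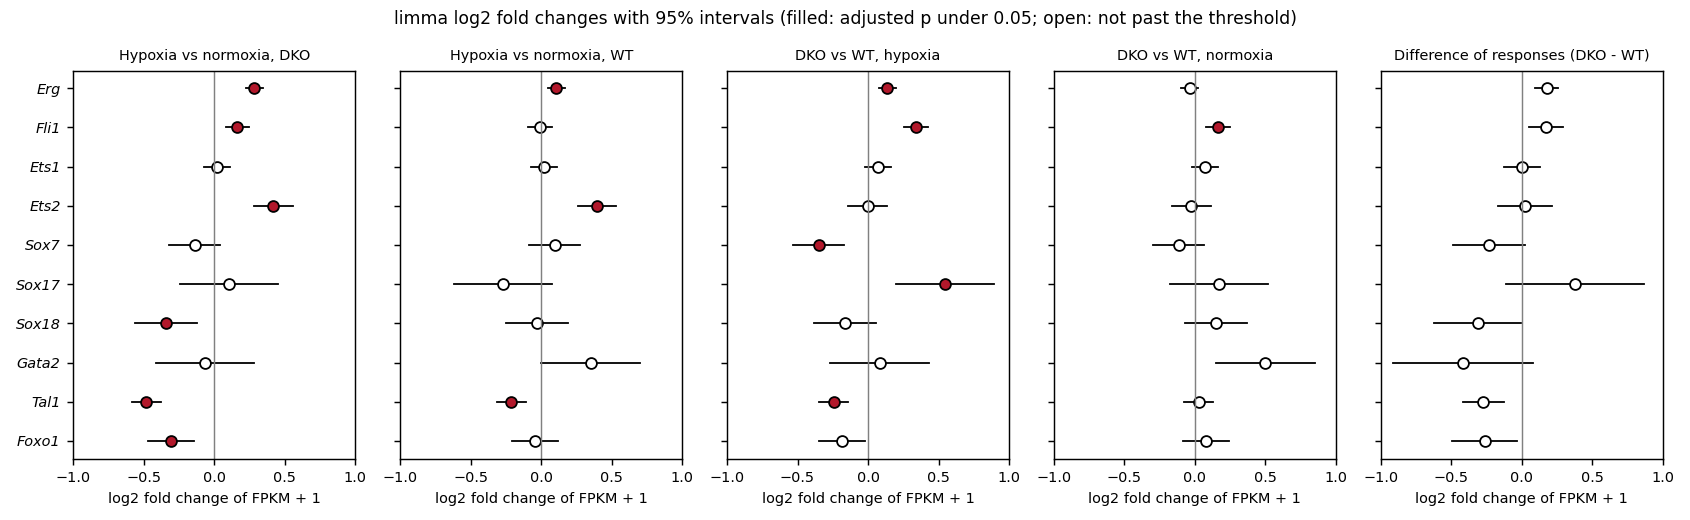
Log2 fold change of FPKM + 1 (x axis, with 95% intervals) for the 10 genes in 5 limma comparisons; filled points passed an adjusted p of 0.05. The filled points are 6, 3, 5, 1 and 0 in number from the left panel to the right.

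Erg (ENSMUSG00000040732) lies on the minus strand of chr16:95359169-95586593 in GRCm38 and encodes the ETS factor that drives junction genes such as Cdh5. It was at 209, 216 and 214 FPKM in DKO hypoxia, 173, 176 and 175 in DKO normoxia, 196, 192 and 193 in WT hypoxia and 182, 180.3 and 176 in WT normoxia. Every hypoxia library was above every normoxia library, and every DKO hypoxia library was above every WT hypoxia library. The normoxia groups overlapped. In limma, hypoxia raised Erg by 0.28 (SE 0.03, adjusted p = 1.54e-05) in DKO cells and by 0.11 (SE 0.03, adjusted p = 0.0169) in WT cells. The WT call was lost with quantile normalization (0.06, adjusted p = 0.214), with only the WT libraries in the fit (adjusted p = 0.0502), without WT hypoxia replicate 1 (adjusted p = 0.07) and without WT normoxia replicate 3 (adjusted p = 0.0679), all in limma. In hypoxia, DKO cells had more Erg than WT cells by 0.14 (limma adjusted p = 0.00566), while the normoxia difference was -0.04 (95% interval -0.10 to 0.02, limma adjusted p = 0.468). Over both genotypes, Erg averaged 203 ± 11.0 FPKM in 6 hypoxia libraries and 177 ± 3.41 in 6 normoxia libraries (SD, two-sided exact permutation p = 0.00217, the smallest that 6 against 6 allow; Benjamini-Hochberg 0.0108 over 20 such tests).

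The promoter windows of Erg and Tal1 are shown because these had the 2 smallest p-values of the 10 genes over the 4 groups and moved in opposite directions. Each is the 250 bases upstream of a RefSeq start (GRCm38.p6), read 5′ to 3′ on the gene's strand. Capitals mark, on either strand, the ETS core GGAA, the SOX motif ACAAT, the GATA motif AGATAA, the TAL1 E-box CAGATG, the forkhead motif GTAAACA and the hypoxia response core ACGTG. Of 32841 RefSeq windows of this length, 93.5% hold GGAA, 27.7% ACAAT, 9.99% AGATAA, 14.5% CAGATG, 3.17% GTAAACA and 16.6% ACGTG. No 2 of these motifs overlap in the windows printed. The first window lies at chr16:95459349-95459598 on the minus strand and ends at the start of the Erg transcript ENSMUST00000122199, and the second at chr4:115056176-115056425 on the plus strand, ending at the start of the main Tal1 transcript.
Erg: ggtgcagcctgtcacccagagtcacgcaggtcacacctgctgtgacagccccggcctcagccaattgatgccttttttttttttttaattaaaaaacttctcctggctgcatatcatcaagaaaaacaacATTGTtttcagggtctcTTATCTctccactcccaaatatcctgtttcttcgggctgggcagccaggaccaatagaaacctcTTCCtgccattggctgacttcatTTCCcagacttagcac
Tal1: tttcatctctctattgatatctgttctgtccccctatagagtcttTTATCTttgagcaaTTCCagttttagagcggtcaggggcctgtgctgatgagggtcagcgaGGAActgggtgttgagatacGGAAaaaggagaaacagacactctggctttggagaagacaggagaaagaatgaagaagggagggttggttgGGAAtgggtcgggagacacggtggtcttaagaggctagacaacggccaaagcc

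The Erg window holds 2 GGAA cores, 1 SOX motif and 1 GATA motif, and the Tal1 window 4 GGAA cores and 1 GATA motif. Neither holds the E-box, forkhead or hypoxia response letters. RefSeq windows were matched for 5 of the 10 genes, the others being Foxo1, Gata2 and Ets2, with 9 windows in all. The other windows of Foxo1, Gata2, Ets2, Erg and Tal1 hold GGAA only, apart from 1 of the Erg windows that holds none of these motifs. The Ets2 window and 1 of the Gata2 windows lie wholly within exons. Their RefSeq starts are 332 bases from the start of ENSMUST00000023612 and 330 from that of ENSMUST00000203480. The sequence upstream of the main Ets2 transcript was therefore not scanned. Of the Erg windows not printed, 1 ends at the start of ENSMUST00000113848, whose mean was 1.06e-20 FPKM. The other lies 56228 bases from the nearest deposited Erg transcript with a GENCODE M21 entry. The longer ETS letters CGGAAG, which contain GGAA (13.6% of all windows), and the AP-1 site TGANTCA (6.75%) were in none of the 9. A match describes the letters only.

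Of the 9 deposited Erg transcripts, 5 had a mean of at least 1 FPKM. ENSMUST00000118113, which has no entry in GENCODE M21, carried 45.7% of the gene's FPKM. Its level was 99.0, 103 and 101 FPKM in DKO hypoxia, 76.5, 73.9 and 77.0 in DKO normoxia, 91.6, 91.6 and 86.4 in WT hypoxia and 80.7, 82.7 and 78.6 in WT normoxia. Groups did not overlap between oxygen levels. In a limma fit of all transcripts, hypoxia raised it by 0.41 in DKO cells (adjusted p = 2.95e-05, against 24.6% of 18090 transcripts called) and by 0.15 in WT cells (adjusted p = 0.0179, against 9.61%). ENSMUST00000122199, whose start follows the printed window, rose by 0.23 in DKO cells (limma adjusted p = 0.00701), and ENSMUST00000171646 rose by 0.57 there (limma adjusted p = 0.0213). ENSMUST00000121809 changed by 0.14 (limma adjusted p = 0.157) and ENSMUST00000113846 by -0.16 (limma adjusted p = 0.635) in the same comparison, so 3 of the 5 passed. ENSMUST00000118113 made up 47.5 ± 0.355% of Erg FPKM in DKO hypoxia, 43.4 ± 1.24% in DKO normoxia, 46.4 ± 1.48% in WT hypoxia and 44.9 ± 0.824% in WT normoxia (SD, n = 3). The annotated Erg transcripts overlap, so their FPKM are linked estimates.

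Ets2 (ENSMUSG00000022895, plus strand, chr16:95702075-95721051) encodes an ETS factor that RAS and MAP kinase signals activate by phosphorylation. Its start lies 115.5 kb from Erg, with no coding gene between them. Ets2 was at 63.5, 67.7 and 59.3 FPKM in DKO hypoxia, 49.4, 48.8 and 43.6 in DKO normoxia, 64.8, 66.1 and 59.7 in WT hypoxia and 45.5, 50.1 and 48.6 in WT normoxia. The hypoxia and normoxia libraries did not overlap, and the genotypes overlapped at each oxygen level. Hypoxia raised Ets2 by 0.42 (SE 0.06, limma adjusted p = 0.000307) in DKO cells and by 0.40 (SE 0.06, limma adjusted p = 0.00142) in WT cells. The difference between genotypes was -0.002 in hypoxia (95% interval -0.14 to 0.14) and -0.02 in normoxia (95% interval -0.16 to 0.11). Averaged over genotypes, Ets2 was at 63.5 ± 3.41 FPKM in hypoxia and 47.7 ± 2.55 in normoxia (SD, n = 6, two-sided exact permutation p = 0.00217). Nearly all of it (99.9%) came from the transcript ENSMUST00000023612.

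Fli1 (ENSMUSG00000016087, minus strand, chr9:32422204-32542861) encodes the ETS factor closest to ERG. It was at 111, 119.5 and 119 FPKM in DKO hypoxia, 105, 103 and 103 in DKO normoxia, 91.0, 88.7 and 96.2 in WT hypoxia and 92.4, 90.5 and 94.2 in WT normoxia. All 6 DKO libraries were above all 6 WT libraries, the DKO hypoxia libraries were above the DKO normoxia libraries, and the WT groups overlapped. DKO cells had more Fli1 than WT cells by 0.34 in hypoxia (SE 0.04, limma adjusted p = 0.000165) and by 0.17 in normoxia (SE 0.04, limma adjusted p = 0.0207). The normoxia call was lost without any of DKO normoxia replicates 1, 2 and 3 or WT normoxia replicates 1 and 2, with limma adjusted p of 0.0522 to 0.0814. Over both oxygen levels Fli1 averaged 110.1 ± 7.60 FPKM in DKO and 92.2 ± 2.71 in WT libraries (SD, n = 6, two-sided exact permutation p = 0.00217, Benjamini-Hochberg 0.0108). Hypoxia raised Fli1 by 0.16 in DKO cells (limma adjusted p = 0.00555, lost with quantile normalization at 0.06 and adjusted p = 0.273). In WT cells the change was -0.01 (95% interval -0.09 to 0.08).

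The Fli1 transcript ENSMUST00000016231 carried 94.8% of the gene's FPKM and was higher in DKO than in WT cells by 0.32 in hypoxia (limma adjusted p = 0.000544) and by 0.16 in normoxia (limma adjusted p = 0.0365). Between genotypes the limma fit of transcripts called 7.1% of transcripts in hypoxia and 3.22% in normoxia. The shorter ENSMUST00000183767 was at 6.82, 8.48 and 8.24 FPKM in DKO hypoxia, 5.54, 2.85 and 5.22 in DKO normoxia, 5.00, 4.71 and 5.46 in WT hypoxia and 3.51, 3.08 and 4.15 in WT normoxia. Within each genotype its hypoxia libraries were above its normoxia libraries. It rose by 0.71 in DKO hypoxia (limma adjusted p = 0.0171), and its change in WT cells was 0.41 (limma adjusted p = 0.197).

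**Figure D3:**
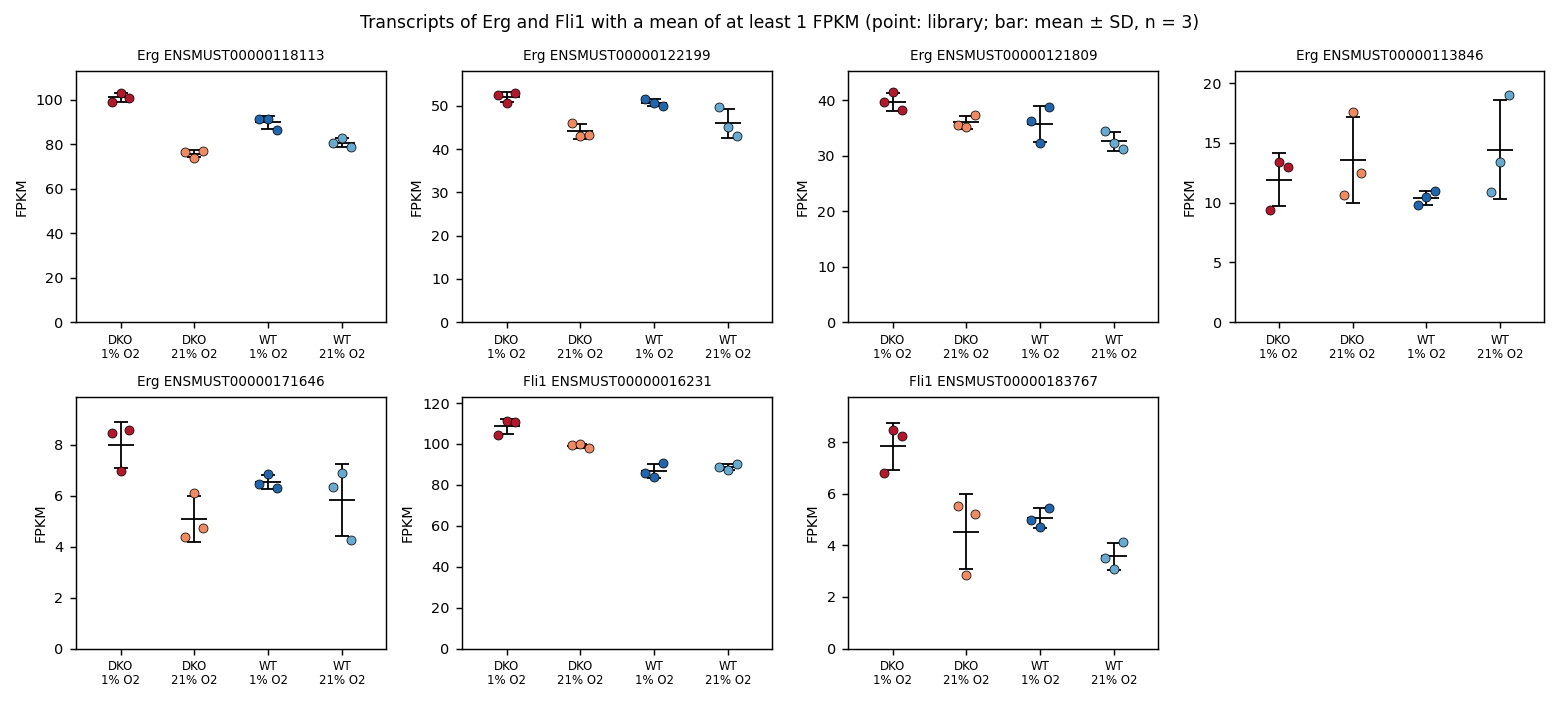
FPKM per library (points) of the Erg and Fli1 transcripts with a mean of at least 1 FPKM, with mean and SD of 3 libraries per group. ENSMUST00000118113 of Erg is highest in DKO hypoxia (99.0 to 103 FPKM), and ENSMUST00000016231 of Fli1 is higher in the DKO groups than in the WT groups.

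Ets1 (ENSMUSG00000032035, plus strand, chr9:32636221-32757820), the founding ETS gene and the neighbour of Fli1 at a distance of 93.4 kb, varied least of the 10, with a coefficient of variation of 3.92% over the 12 libraries. It averaged 55.9 ± 0.298 FPKM in DKO hypoxia, 55.1 ± 0.747 in DKO normoxia, 53.2 ± 2.74 in WT hypoxia and 52.5 ± 2.32 in WT normoxia (SD, n = 3 each). The groups overlapped in each of the 4 comparisons. Its log2 fold change with hypoxia was 0.02 in DKO cells (95% interval -0.07 to 0.11) and 0.02 in WT cells (95% interval -0.07 to 0.11). Both turned negative with quantile normalization, at -0.04 and -0.02.

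Tal1 (ENSMUSG00000028717, plus strand, chr4:115056426-115071755) encodes a helix-loop-helix factor of blood and endothelial precursors. It was at 9.84, 10.6 and 10.7 FPKM in DKO hypoxia, 14.2, 15.3 and 15.2 in DKO normoxia, 12.3, 12.4 and 12.7 in WT hypoxia and 15.1, 14.6 and 14.1 in WT normoxia. The DKO hypoxia libraries were below all others, the WT hypoxia libraries came next, and the normoxia groups overlapped. With hypoxia Tal1 fell in DKO cells (log2 fold change -0.48, SE 0.05, limma adjusted p = 1.72e-05) and in WT cells (log2 fold change -0.21, SE 0.05, limma adjusted p = 0.00927). In hypoxia Tal1 was lower in DKO than in WT cells, with a log2 fold change of -0.24 (SE 0.05, limma adjusted p = 0.00499). In normoxia the difference was 0.03 (95% interval -0.08 to 0.13). Over both genotypes it averaged 11.4 ± 1.19 FPKM in hypoxia and 14.7 ± 0.518 in normoxia (SD, n = 6, two-sided exact permutation p = 0.00217).

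The transcript ENSMUST00000030489, whose start follows the printed Tal1 window, carried 93.7% of the gene's FPKM. On its own it fell in DKO hypoxia (log2 fold change -0.38, limma adjusted p = 0.00298). Its WT hypoxia change of -0.22 (limma adjusted p = 0.0741) and its genotype difference of -0.17 in hypoxia (limma adjusted p = 0.176) did not pass among all transcripts.

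Gata2 (ENSMUSG00000015053, plus strand, chr6:88193891-88207032) encodes a zinc finger factor that partners TAL1 and LMO2. It was at 6.37, 6.37 and 8.61 FPKM in DKO hypoxia, 7.20, 7.61 and 7.49 in DKO normoxia, 7.18, 6.18 and 6.51 in WT hypoxia and 3.48, 6.62 and 5.23 in WT normoxia. The DKO normoxia libraries were above the WT normoxia libraries, and the groups overlapped in the other 3 comparisons. No comparison of Gata2 passed in limma with equal library weights, and the nearest was DKO against WT in normoxia (0.50, 95% interval 0.15 to 0.85, adjusted p = 0.0835). With array weights that difference passed (0.54, limma adjusted p = 0.037). Without WT normoxia replicate 2 that difference was 0.68 (limma adjusted p = 0.0212) and the WT hypoxia change was 0.53 (limma adjusted p = 0.031).

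A 423-base Gata2 transcript, ENSMUST00000203480, carried 42.9% of the summed FPKM. A short transcript needs fewer fragments for a given FPKM. On the scale of estimated fragments per 1000000, which weights transcripts by effective length, Gata2 averaged 12.8 ± 0.827 in DKO hypoxia, 11.2 ± 0.629 in DKO normoxia, 11.5 ± 1.06 in WT hypoxia and 10.6 ± 1.18 in WT normoxia (SD, n = 3). The normoxia difference between DKO and WT was then 0.08 (95% interval -0.10 to 0.27, limma adjusted p = 0.619).

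Among partners of these factors, Lmo2, the bridge between TAL1 and GATA2, was high at a mean of 271 FPKM. It was higher in DKO than in WT normoxia, at 296 ± 8.02 and 264 ± 11.8 FPKM (SD, n = 3), a log2 fold change of 0.17 (limma adjusted p = 0.0252). Lyl1, the closest relative of Tal1, was lower in DKO than in WT hypoxia, at 4.87 ± 0.868 and 7.62 ± 0.595 FPKM (SD, n = 3), a log2 fold change of -0.56 (limma adjusted p = 0.00263). Of 21 partner genes tested, 3 were higher and 3 lower in DKO than in WT hypoxia, against 7.68% and 8.42% of all genes. Tcf4 (0.215, limma adjusted p = 0.0085) and Mef2a (0.218, limma adjusted p = 0.00616) were among the higher. In normoxia 1 was higher, Lmo2, and 0 lower, against 3.84% and 4.32% of all genes.

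No comparison called all 3 SOXF genes, and whether they moved together was not tested. In hypoxia Sox7 was called lower and Sox17 higher in DKO than in WT cells, while Sox18 did not pass. Sox7 (ENSMUSG00000063060, plus strand, chr14:63943673-63950732) was at 3.85, 3.66 and 4.34 FPKM in DKO hypoxia, 4.97, 4.55 and 3.86 in DKO normoxia, 5.09, 5.59 and 5.21 in WT hypoxia and 4.77, 5.23 and 4.69 in WT normoxia. All DKO hypoxia libraries were below all WT hypoxia libraries, and the groups overlapped in the other 3 comparisons. The log2 fold change of DKO against WT in hypoxia was -0.35 (SE 0.08, limma adjusted p = 0.0148). It lost the call without DKO hypoxia replicate 1 (adjusted p = 0.0508), DKO hypoxia replicate 2 (adjusted p = 0.0544) or WT hypoxia replicate 2 (adjusted p = 0.0592), all in limma. Over both oxygen levels Sox7 averaged 4.20 ± 0.502 FPKM in DKO and 5.10 ± 0.331 in WT libraries (SD, n = 6, two-sided exact permutation p = 0.00866, Benjamini-Hochberg 0.0346).

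Sox18 (ENSMUSG00000046470, minus strand, chr2:181669836-181671640), which induces Prox1 in lymphatic precursors, was at 37.3, 46.1 and 44.2 FPKM in DKO hypoxia, 57.3, 56.8 and 48.3 in DKO normoxia, 48.5, 53.3 and 41.9 in WT hypoxia and 44.7, 50.4 and 50.9 in WT normoxia. The DKO hypoxia libraries were below the DKO normoxia libraries, and the groups overlapped in the other 3 comparisons. Hypoxia lowered Sox18 in DKO cells (log2 fold change -0.34, SE 0.10, limma adjusted p = 0.0179). That call was lost without DKO hypoxia replicate 1 (adjusted p = 0.0786), DKO normoxia replicate 1 (adjusted p = 0.0601) or DKO normoxia replicate 2 (adjusted p = 0.0631), all in limma. In WT cells the change was -0.03 (95% interval -0.25 to 0.19).

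Sox17 (ENSMUSG00000025902, minus strand, chr1:4490931-4497354), a factor of arterial endothelium, was at 1.37, 1.86 and 2.04 FPKM in DKO hypoxia, 2.23, 1.67 and 0.917 in DKO normoxia, 0.867, 0.861 and 0.907 in WT hypoxia and 1.12, 1.33 and 1.35 in WT normoxia. The WT hypoxia libraries were the 3 lowest of the 12, and DKO normoxia spread over almost the whole range. DKO was above WT in hypoxia by 0.55 (SE 0.16, limma adjusted p = 0.036). That call was lost without a filter on low values (adjusted p = 0.0767) and on the fragment scale (0.23, adjusted p = 0.282), both in limma. It was also lost without DKO hypoxia replicates 2 or 3 or any of the 3 WT hypoxia replicates, with limma adjusted p of 0.077 to 0.121. A single 840-base transcript, ENSMUST00000191939, carried 53.7% of the Sox17 FPKM, and exons of the gene Gm37587 on the opposite strand overlap 804 of its 4772 exon bases.

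**Figure D4:**
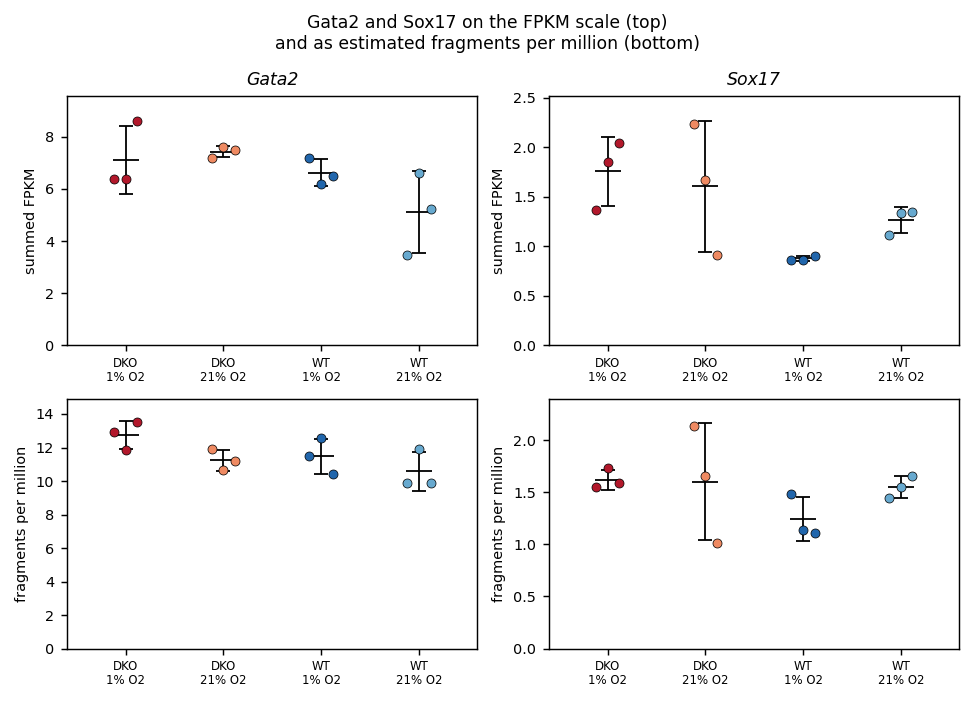
Gata2 and Sox17 in each library (points), with mean and SD of 3 libraries per group, as summed FPKM (top) and as estimated fragments per 1000000 (bottom). The Gata2 group means span 5.11 to 7.43 FPKM and 10.6 to 12.8 fragments, and the Sox17 group means span 0.878 to 1.76 FPKM and 1.25 to 1.62 fragments.

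Foxo1 (ENSMUSG00000044167, plus strand, chr3:52268336-52353221) encodes the forkhead factor that AKT phosphorylates. It was at 1.15, 1.18 and 1.14 FPKM in DKO hypoxia, 1.71, 1.69 and 1.62 in DKO normoxia, 1.34, 1.67 and 1.34 in WT hypoxia and 1.61, 1.55 and 1.42 in WT normoxia. The DKO hypoxia libraries were the 3 lowest of the 12, the DKO normoxia libraries were above the WT normoxia libraries, and the WT groups overlapped. The DKO hypoxia mean was 69.1% of the DKO normoxia mean. Hypoxia lowered Foxo1 in DKO cells (log2 fold change -0.31 with a pseudocount of 1, SE 0.07, limma adjusted p = 0.00627), and with a pseudocount of 0.1 the value was -0.50 (limma adjusted p = 0.0064). In WT cells the change was -0.05 (95% interval -0.21 to 0.12). In hypoxia the difference between DKO and WT was -0.18 (95% interval -0.35 to -0.02, limma adjusted p = 0.126), on the fragment scale it was -0.29 (limma adjusted p = 0.0162), and without a variance trend it passed at the same value (limma adjusted p = 0.043). Foxo1 had 206 to 357 estimated fragments per library on a transcript of 8665 bases, of which 674 overlap exons of Gm20402 on the opposite strand.

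**Figure D5:**
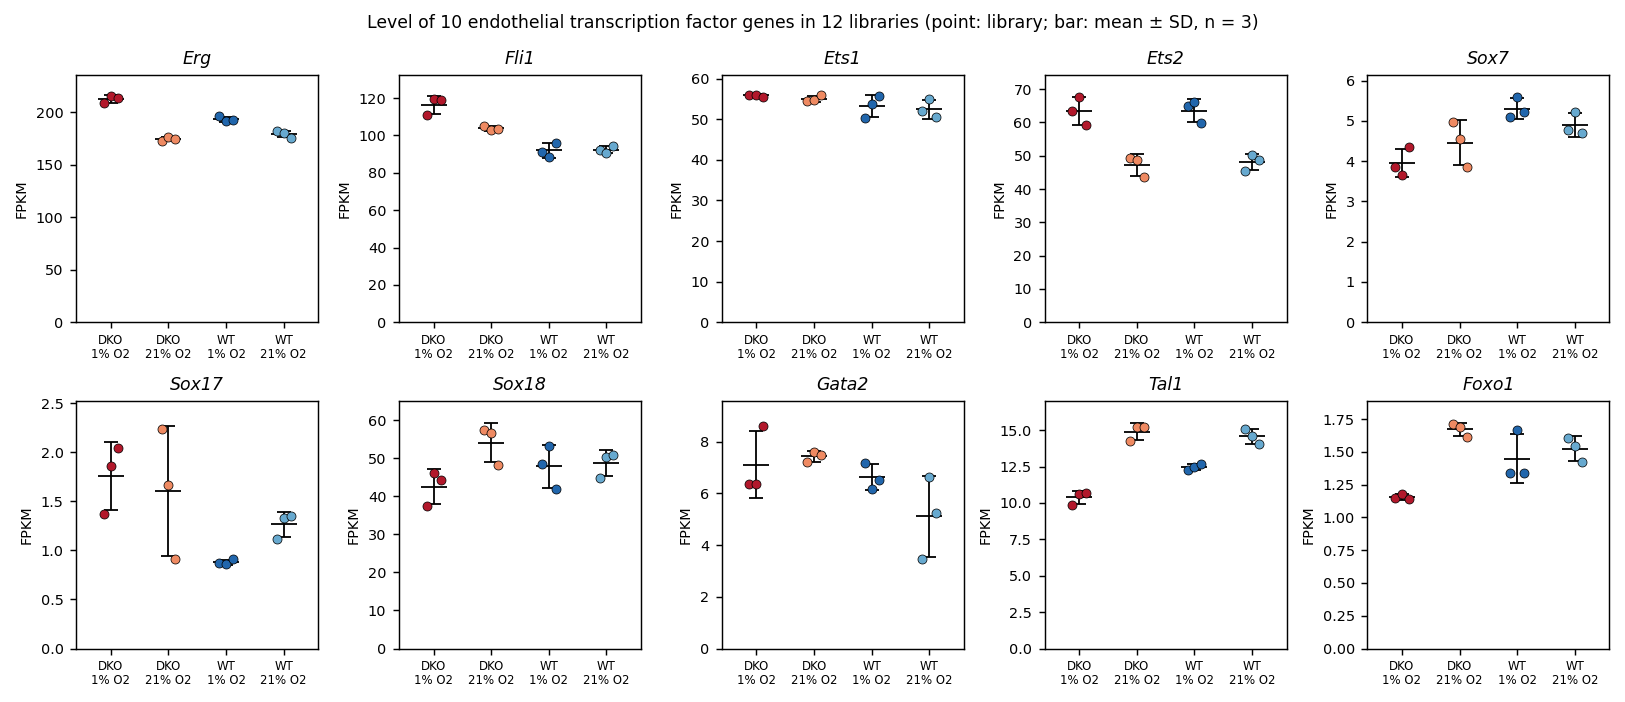
FPKM of each of the 10 genes in every library (points), with mean and SD of 3 libraries per group; each panel starts at 0. Ets2 separates by oxygen in both genotypes, Fli1 separates by genotype, and Erg and Tal1 are furthest from normoxia in DKO hypoxia.

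The difference between the DKO and WT responses to hypoxia was tested directly. It passed the limma threshold for 0 of the 10 genes, against 0.193% of all tested genes. At an unadjusted p under 0.05 it covered 5 of the 10 genes and 16% of all tested genes, and those 5 were Erg, Fli1, Sox18, Tal1 and Foxo1. The Erg response was larger in DKO cells by 0.18 (95% interval 0.09 to 0.26, limma adjusted p = 0.0787) and the Tal1 response was lower there, with a difference of -0.27 (95% interval -0.42 to -0.12, limma adjusted p = 0.0971). For Fli1 the difference was 0.17 (95% interval 0.05 to 0.29, limma adjusted p = 0.16), for Sox18 -0.31 (95% interval -0.62 to -0.004, limma adjusted p = 0.306) and for Foxo1 -0.26 (95% interval -0.49 to -0.03, limma adjusted p = 0.251). For Ets2 it was 0.02 (95% interval -0.17 to 0.22). A call in DKO cells without one in WT cells is therefore not shown to be a difference between genotypes for any of the 10. With array weights, limma passed Erg (0.17, adjusted p = 0.048).

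Some markers of other cells differed with genotype. The summed FPKM of 12 leukocyte markers was 85.0 to 95.2 in DKO hypoxia, 90.6 to 102 in DKO normoxia, 52.6 to 53.6 in WT hypoxia and 40.6 to 50.6 in WT normoxia. Most of it came from Lyz2 and Cd14, while Ptprc had a mean of 0.385 FPKM, Spi1 one of 0.129 and Cd3e one of 0.0061. The 8 fibroblast markers summed to 4.40 to 5.04 FPKM in DKO hypoxia, 6.05 to 6.42 in DKO normoxia, 1.97 to 2.97 in WT hypoxia and 2.44 to 3.28 in WT normoxia. The 6 lymphatic endothelial markers summed to 414 to 460 FPKM in DKO hypoxia, 384 to 443 in DKO normoxia, 533 to 614 in WT hypoxia and 495 to 506 in WT normoxia. Lyve1 (mean 315 FPKM) made up most of that sum. Of the 6, 1 was higher (Pdpn, 0.24) and 1 lower (Lyve1, -0.40) in DKO than in WT normoxia, against 8.16% of all genes. In hypoxia 0 were higher and 2 lower (Lyve1, -0.56, and Prox1, -0.34), against 16.1%. The mural markers Acta2 (0.63) and Tagln (-0.56) differed in opposite directions between DKO and WT hypoxia (limma adjusted p = 0.00614 and 0.00529). The part of all these markers in the genotype differences of Fli1, Erg, Sox7, Sox17 and Tal1 was not tested. Of 9 epithelial markers, Sftpc, Sftpb and Scgb1a1 were at or near 0, and Epcam, Cdh1 and Nkx2-1 had means under 0.1 FPKM. The list summed to 28.4 to 31.0 FPKM in DKO hypoxia, 26.2 to 30.8 in DKO normoxia, 25.6 to 28.7 in WT hypoxia and 27.2 to 31.8 in WT normoxia, nearly all of it from the keratin gene Krt18 (mean 28.0 FPKM).

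Among the 10 other ETS genes tested, hypoxia raised 3 and lowered 1 in DKO cells and raised 1 in WT cells, against 39.3% and 20.8% of all tested genes changed. Their median log2 fold change was 0.10 in DKO and 0.04 in WT cells, against 0.01 and 0.00 over all genes. Elf1 rose by 0.73 in DKO hypoxia (limma adjusted p = 1.08e-06) and by 0.49 in WT hypoxia (limma adjusted p = 5.03e-05). Etv6 rose by 0.54 (limma adjusted p = 0.00228) and Elk1, a nuclear target of MAP kinases, fell (-0.36, limma adjusted p = 0.00163) in DKO cells. Between genotypes 1 of the 10 was higher in DKO hypoxia (Elf1, 0.18, limma adjusted p = 0.0297), against 7.68% of all genes.

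Outside the SOXF subgroup, only Sox4 and Sox13 of 11 SOX genes were tested. Sox4, the highest of the SOX genes examined, had 94.5 ± 2.33 FPKM in DKO hypoxia, 102 ± 2.88 in DKO normoxia, 112 ± 3.09 in WT hypoxia and 104 ± 0.913 in WT normoxia (SD, n = 3). It fell in DKO hypoxia (-0.10, limma adjusted p = 0.0276) and rose in WT hypoxia (0.11, limma adjusted p = 0.039). Sox13 fell in DKO (-0.27, limma adjusted p = 0.00647) and in WT hypoxia (-0.25, limma adjusted p = 0.0226). The difference between the DKO and WT responses passed in limma for 0 of these 2 genes. Of 7 other GATA and forkhead genes tested, 3 rose and 2 fell in DKO hypoxia (39.3% of all genes changed), and 3 rose and 1 fell in WT hypoxia (20.8%). Their median was 0.12 in DKO and 0.23 in WT cells, beside the all-gene medians above. Foxo3, at 18.7 FPKM far above Foxo1, rose by 0.29 in DKO cells (limma adjusted p = 0.00947) and by 0.35 in WT cells (limma adjusted p = 0.00747). Foxo4 fell in DKO cells (-0.28, limma adjusted p = 0.00963). In WT cells Foxo4 averaged 7.675 ± 0.448 FPKM in hypoxia and 9.144 ± 0.722 in normoxia (SD, n = 3).

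Of 21 partner genes tested, hypoxia raised 10 and lowered 2 in DKO cells, against 19.6% of all genes in each direction, and raised 5 and lowered 0 in WT cells, against 10.5% and 10.4%. Tcf4, an E protein that pairs with TAL1, rose by 0.52 in DKO cells (limma adjusted p = 7.74e-06) and by 0.34 in WT cells (limma adjusted p = 0.000511). Mef2a rose by 0.36 in DKO cells (limma adjusted p = 7.96e-05) and by 0.23 in WT cells (limma adjusted p = 0.00367). Prox1, a lymphatic regulator downstream of SOX18, rose by 0.52 in WT cells (limma adjusted p = 0.00182). In DKO cells Prox1 averaged 27.26 ± 1.91 FPKM in hypoxia and 19.96 ± 1.834 in normoxia (SD). The DKO hypoxia libraries (25.1 to 28.73 FPKM) were all above the DKO normoxia libraries (18.54 to 22.03 FPKM). The median log2 fold change of the 21 was 0.20 in DKO and 0.09 in WT cells, against 0.01 and 0.00 over all genes.

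Known targets of these factors were listed from general knowledge of the field. Whether these factors drove the changes of the listed genes was not tested. Of 22 targets of ERG or FLI1 tested, 9 rose and 3 fell in DKO hypoxia, against 39.3% of all tested genes changed, and 5 rose and 1 fell in WT hypoxia, against 20.8%. Their median log2 fold change was 0.10 in DKO and 0.05 in WT cells, against 0.01 and 0.00 over all genes. Dll4, the Notch ligand of tip cells, rose by 0.55 in DKO cells (limma adjusted p = 0.00031) and by 0.74 in WT cells (limma adjusted p = 0.000138). Cldn5, the tight junction gene, fell in DKO hypoxia (-0.58, limma adjusted p = 0.000176) and was lower there than in WT hypoxia, at 199.6 ± 15.6 and 293 ± 29.5 FPKM (SD, n = 3, log2 fold change -0.55, limma adjusted p = 0.000784). Esam, a junctional adhesion molecule, was higher in DKO than in WT cells by 0.36 in hypoxia (limma adjusted p = 3.79e-05) and by 0.31 in normoxia (limma adjusted p = 0.000163). Between genotypes 5 of the 22 were higher and 2 lower in DKO hypoxia (16.1% of all genes differed), and 2 were higher in DKO normoxia (8.16%).

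Of 13 SOXF targets tested, 5 rose and 3 fell in DKO hypoxia, against 39.3% of all genes changed, and 6 rose and 1 fell in WT hypoxia, against 20.8%. Their median was 0.15 in DKO and 0.11 in WT cells, beside all-gene medians of 0.01 and 0.00. Hey1, a Notch effector, was at 1.07 ± 0.243 FPKM in DKO hypoxia and 4.73 ± 1.40 in WT hypoxia (SD, n = 3, log2 fold change -1.44, limma adjusted p = 0.000116), and it rose by 1.21 in WT hypoxia (limma adjusted p = 0.000415). The difference between the DKO and WT responses passed in limma for 0 of the 13 SOXF targets. Of 12 GATA2 targets, 3 rose and 5 fell in DKO hypoxia and 1 rose and 2 fell in WT hypoxia, beside the same shares of all genes, with medians of 0.02 in DKO and -0.01 in WT cells. Vegfa rose by 2.82 in DKO cells (limma adjusted p = 4.84e-07) and by 2.76 in WT cells (limma adjusted p = 7.87e-07), and Kit, a stem cell factor receptor, fell (-1.17 in DKO, limma adjusted p = 1.38e-06; -1.01 in WT, limma adjusted p = 8.93e-06). Between genotypes 3 of the 12 were higher and 1 lower in DKO hypoxia (16.1% of all genes differed), and 4 were higher in DKO normoxia (8.16%), among them Cd34 (0.25, limma adjusted p = 0.000373).

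Of 20 FOXO1 targets tested, 7 rose and 6 fell in DKO hypoxia, against 39.3% of all genes changed, and 8 rose and 2 fell in WT hypoxia, against 20.8%. Their median was 0.05 in DKO and 0.08 in WT cells, against 0.01 and 0.00 over all genes. Mxi1, a MYC antagonist, rose by 0.64 in DKO cells (limma adjusted p = 3.23e-05) and by 1.05 in WT cells (limma adjusted p = 1.55e-06). Txnip (-0.61, limma adjusted p = 1.23e-05) and Gadd45a (-0.65, limma adjusted p = 2.43e-05) fell in DKO cells. In WT cells Txnip averaged 176.5 ± 16.1 FPKM in hypoxia and 220.7 ± 4.745 in normoxia (SD, n = 3). Gadd45a averaged 200.6 ± 14.8 FPKM in WT hypoxia and 224.4 ± 9.21 in WT normoxia. In hypoxia 4 of the 20 were higher and 8 lower in DKO than in WT cells, against 7.68% and 8.42% of all genes, with Fbxo32, a ubiquitin ligase gene, higher by 0.40 (limma adjusted p = 0.000238) and Klf6 lower (-0.41, limma adjusted p = 1.88e-05). Of 13 genes that regulate FOXO proteins, 8 rose and 1 fell in DKO hypoxia and 3 rose and 1 fell in WT hypoxia, beside the same 39.3% and 20.8% of all genes, with medians of 0.17 in DKO and 0.09 in WT cells. Sgk1, a kinase that phosphorylates FOXO proteins, rose by 0.64 in DKO cells (limma adjusted p = 5.37e-05) and by 0.54 in WT cells (limma adjusted p = 0.000613). Of 12 kinases and regulators of ETS factors, 1 rose and 2 fell in DKO hypoxia, against 39.3% of all genes changed. In WT hypoxia 1 rose and 1 fell, against 20.8%, and the medians were 0.04 in both genotypes. Map2k1 rose by 0.59 in DKO cells (limma adjusted p = 2.19e-07) and by 0.63 in WT cells (limma adjusted p = 1.12e-07), and Dusp6, an ERK phosphatase, fell (-0.99 in DKO, limma adjusted p = 7.62e-06; -0.62 in WT, limma adjusted p = 0.000637).

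Among 8019 named genes at a mean of 5 FPKM or more, the patterns most like those of the 5 members with the smallest p over the 4 groups were found by Pearson's r of log2 values over the 12 libraries, which also share the group structure. Erg was nearest to Arcn1 (0.981), Cdr2 (0.979) and Map3k7 (0.979). Fli1 was nearest to Ccng1 (0.953), Spp1 (0.952) and Lpin3 (0.949), and Ets2 to Pnrc1 (0.976), Vegfa (0.973) and Ppme1 (0.971). Tal1 was nearest to Fpgt (0.988), Exosc3 (0.98) and Ttf1 (0.98), and Sox7 to Rcor1 (0.929), Sh3pxd2b (0.888) and Adgre5 (0.862). The Cdr2 means were 39.4 FPKM in DKO hypoxia, 20.98 in DKO normoxia, 29.5 in WT hypoxia and 21.03 in WT normoxia. These are in the same order as the Erg means, whose normoxia groups overlapped.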

How the data were processed

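Libraries were made with NEBNext Ultra reagents from RNA purified on RNeasy Plus columns, per the labels' protocols. TopHat2 was the aligner named in the submitters' processing notes. The FPKM values of 52655 transcripts are those the authors deposited. Their quantifier, genome build, annotation and strand setting were not given in the sources read. FPKM were summed over 23422 gene identifiers, and the 11378 genes that averaged 1 FPKM or more were tested on log2(FPKM + 1). Since FPKM are not counts, limma 3.58.1 (R 4.3.3) was used: all 12 libraries, 1 coefficient per group, 8 residual degrees of freedom, a variance trend, and Benjamini-Hochberg adjustment over all genes (threshold 0.05). The limma fit was tested on simulated data, and the other steps were not. GENCODE M21 (GRCm38), in which 95.4% of the transcripts are found, gave positions and lengths, and RefSeq gave promoters.

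Depth was estimated from the steps of low FPKM, with 275 bases taken off each length, after which 91.0 to 93.0% of low values lay within 0.1 of a whole fragment. Depth and the bases taken off were chosen to make this share largest, so it is no independent check. FPKM times that length in kilobases gave fragments per 1000000 (10755 genes). Overlapping transcripts were split by the authors' estimator, which could shift fragments between them.

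The 10 genes and the lists were chosen with earlier results of these data known. Named are all 10 genes in each comparison, up to 3 genes of each list by smallest p, and the 3 most similar genes of the 5 members with the smallest p over the groups. Marker genes, ETS levels, Lmo2, Foxo3 and transcripts are given as values. Alternatives tried were 0.1 as pseudocount, a filter of 5 FPKM or none, quantile or median scaling, fits on only the libraries compared, replicate number as a block, an untrended variance, weights per array, single transcripts, the fragment scale and each library left out.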

Additional observations from a re-analysis of the deposited data

How the results depend on the processing

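The hypoxia responses of Ets2 in both genotypes, those of Erg and Tal1 in DKO cells, and the higher Fli1 in DKO hypoxia kept direction and call under each alternative run, single libraries left out included. The 59 member values followed leave out averaged effects that were not called. Over these and all settings, 1179 kept direction and call status, 67 lost a call, 6 gained one and 39 changed sign. A value uncalled both times counts as kept.

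Sign changes outside the left-out libraries were all of uncalled values except the average hypoxia effect of Fli1. With quantile normalization Ets1 was at -0.022 (WT hypoxia), -0.037 (DKO hypoxia) and -0.016 (difference of responses), and the average hypoxia effect of Fli1 was -0.0105. With equal library medians Fli1 was at 0.0053 in WT hypoxia and Ets2 at 0.011 between genotypes in hypoxia. With array weights Sox18 was at 0.012 in WT hypoxia, and Ets2 at 0.0044 between genotypes in normoxia and -0.023 in the difference of responses. On the fragment scale Gata2 was at 0.17 in DKO hypoxia and 0.061 in the difference, and Tal1 at -0.037 between genotypes in normoxia. The highest transcript alone gave -0.045 for Gata2 between genotypes in hypoxia and -0.017 for Tal1 in normoxia. The causes were not tested.

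The count of genes called for the difference of responses was 22, and it was 12 with quantile normalization, 6 without a variance trend, 153 with array weights and 288 on the fragment scale, which Erg could not enter because part of its FPKM has no transcript length. The genotype comparison in normoxia called 929 genes, and 616 with only its own libraries. Same-numbered libraries showed no strong shared deviation from their group means, with correlations of -0.084 to 0.052. This cannot decide whether they share animals or cultures, which is not stated. With the replicate block the difference of responses had 1 gene called. Of the members, Sox17 between genotypes in hypoxia (0.55, adjusted p = 0.059) and the average genotype effects of Sox17 (0.36, adjusted p = 0.069) and Tal1 (-0.11, adjusted p = 0.0553) lost the limma call with the block.

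With single libraries left out, the genes called were 1382 to 2393 for WT hypoxia, 583 to 935 between genotypes in normoxia, 1175 to 1873 in hypoxia and 1 to 39 for the difference of responses. The log2 fold changes that changed sign were those of Fli1 (-0.0398 to 0.018), Ets1 (-0.012 to 0.0597) and Sox18 (-0.11 to 0.064) in WT hypoxia, Sox17 (-0.099 to 0.28) in DKO hypoxia, Ets2 (-0.063 to 0.031) and Sox17 (-0.0017 to 0.38) between genotypes in normoxia, Ets2 (-0.048 to 0.046) and Gata2 (-0.047 to 0.15) in hypoxia, and Ets1 (-0.039 to 0.033) and Ets2 (-0.033 to 0.0705) for the difference of responses. FPKM carry no counts, so no counting interval was given, and 24 to 53 fragments limit what the Sox17 values can show.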
